A study of Homo sapiens with 12 samples.

Results

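The E2F transcription factors E2F1, E2F2, E2F3, E2F4, E2F7 and E2F8, the pocket proteins RB1 and RBL1, and the transcription factors FOXM1 and MYBL2 were followed by RNA sequencing in JJN3, a human multiple myeloma cell line. They were taken by gene symbol, as 10 of the 59276 symbols in the deposited gene table. DMSO cells received the vehicle and MS023 cells received 10 µM MS023, an inhibitor of the type I protein arginine methyltransferases, each for 3 days. The labels speak of wild-type JJN3 cells and name no Cas9 or guide for these 6 samples. The other 6 samples came from JJN3 cells with a lentiviral Cas9, sorted by its mCherry reporter, and a lentiviral inducible guide, selected with puromycin. isgCtrl cells carried a control guide and PRMT1-KO cells the single PRMT1 guide iPRMT1_1, and both received doxycycline for 3 days. No cloning step is described for these cells. Each group had 3 replicates. The labels do not say whether these were separate cultures, and the study's methods speak of independent repeats only in general, so the p-values measure the spread between these samples, which may be technical. Values are TPM, a transcript abundance corrected for length and depth, on the scale log2(TPM+1), and ± is the SD of the 3 replicates. Levels of different genes can be compared on this scale. Each sample is scaled to a fixed TPM total, so the number of reads behind a value is unknown. The study's methods give only a minimum number of read pairs per sample.

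E2F factors bind the promoters of genes needed for DNA replication. E2F1, E2F2 and E2F3 are activators, E2F4 works mainly as a repressor together with pocket proteins, and E2F7 and E2F8 are atypical repressors that bind DNA without a DP partner. RB1 holds the activators in check until cyclin-dependent kinases phosphorylate it, and RBL1 (p107) and RBL2 (p130) work with E2F4 in the DREAM complex on the MuvB core. MYBL2 (B-MYB) takes over MuvB in dividing cells, and FOXM1 joins it on genes for mitosis. In plasma cell tumours this network sets whether the cells divide, and the D-type cyclins that act on RB1 are often deregulated in them.

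Several of these regulators are themselves E2F targets, so their promoters are shown first. RefSeq tables for GRCh38.p14 held a window of 250 bases before to 50 bases after the start for 8 of the 10 genes. E2F-type sites were searched as TTTCCCGC, TTTCGCGC, TTTGCCGC and TTTGGCGC on both strands. They were found in the windows of E2F1, E2F2, E2F3 and RBL1, that is in 4 of 8 genes (50%). Of all 27305 genes with a window, 1090 had such a site (3.99%). The 120 bases just before the annotated start of each of these 4 genes follow, read 5′ to 3′ on the strand of the gene, with the E2F-type sites in capitals. They lie at chr20:33686386-33686505 (minus strand) for E2F1, chr1:23531234-23531353 (minus) for E2F2, chr6:20401759-20401878 (plus) for E2F3 and chr20:37095998-37096117 (minus) for RBL1.
E2F1: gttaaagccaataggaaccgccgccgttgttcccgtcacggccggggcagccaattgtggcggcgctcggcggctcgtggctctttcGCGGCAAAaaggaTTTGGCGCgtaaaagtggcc
E2F2: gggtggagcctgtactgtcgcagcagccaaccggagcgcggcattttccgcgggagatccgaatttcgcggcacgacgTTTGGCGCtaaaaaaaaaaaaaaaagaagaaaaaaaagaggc
E2F3: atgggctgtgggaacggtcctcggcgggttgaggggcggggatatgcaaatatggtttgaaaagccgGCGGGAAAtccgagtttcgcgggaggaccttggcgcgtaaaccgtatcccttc
RBL1: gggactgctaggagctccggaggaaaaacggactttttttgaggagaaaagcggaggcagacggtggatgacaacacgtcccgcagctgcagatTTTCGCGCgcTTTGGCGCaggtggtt
E2F1 and RBL1 each had 2 sites, with first bases 33 and 20 bases before the start in E2F1 and 26 and 16 bases before it in RBL1. In E2F3 the site is on the opposite strand, 53 bases before the start, and so is the E2F1 site at 33 bases. None of these spellings was found in the windows of E2F4, E2F7, RB1 and MYBL2. Other spellings of E2F sites were not searched, so this does not show that these promoters lack one. The RB1 window belongs to an internal start 172706 bases from the first annotated one, and the MYBL2 window to a start 95 bases away. E2F3 has another window at a start 1735 bases away, with no such site. The cell cycle homology region (CHR, TTTGAA), an element of many mitotic promoters, stood in the window of E2F3 only among the 8, against 18.2% of all genes with a window. A match is a string of letters and was not tested for binding.

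PRMT1 mRNA served as the check of the labels. On the log2(TPM+1) scale the isgCtrl samples spanned 9.73 to 9.76 and the PRMT1-KO samples 8.24 to 8.28. The log2 fold change was -1.50 (SE 0.04; limma, Benjamini-Hochberg adjusted p = 7.2e-04). A block for the replicate number left this value as it was and lost the call (limma adjusted p = 0.149). Of 8 plasma cell markers, all 8 had a mean above 1 in DMSO and MS023, 7 in isgCtrl and 5 in PRMT1-KO, and XBP1 was the highest in every group. Their summed level was 716 to 755 TPM in DMSO, 1153 to 1197 in MS023, 653 to 667 in isgCtrl cells and 627 to 631 in PRMT1-KO cells. Among single markers, MZB1 and SLAMF7 differed far more between the arms. MZB1 had 105 ± 2.16 TPM in DMSO and 178 ± 2.94 with MS023, against 2.01 ± 0.375 in isgCtrl and 1.01 ± 0.622 in PRMT1-KO. SLAMF7 had 9.32 ± 0.652 and 52.2 ± 3.59 TPM in DMSO and MS023, against 0.369 ± 0.195 and 0.463 ± 0.177. The 8 markers did not all move alike. In isgCtrl against DMSO 5 were lower and 3 higher, and IRF4 had 157 ± 4.09 TPM against 95.1 ± 5.71. In MS023 against DMSO 6 were higher and 2 lower, and CD38 had 2.24 ± 0.165 TPM against 4.96 ± 0.400. Markers of T, myeloid, erythroid, fibroblast, epithelial and endothelial cells summed to between 72.5 and 97.05 TPM over all groups, and EPCAM was the highest of these in each group, with CD3D listed at 0 in all groups but DMSO. The part of these differences in the results below was not tested.

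All 10 regulators were expressed in every group. In DMSO cells MYBL2 was the highest at 207 ± 14.8 TPM, followed by E2F4 at 75.6 ± 3.39 and RB1 at 42.7 ± 3.01. FOXM1 (27.1 ± 2.34) and E2F1 (25.1 ± 1.26) came next and overlapped between samples. E2F2 had 17.6 ± 1.51 TPM. E2F3 (10.7 ± 0.303) overlapped RBL1 (10.3 ± 2.11), and E2F8 (5.77 ± 0.302) overlapped E2F7 (5.59 ± 0.763). The same order held in isgCtrl and in PRMT1-KO cells. With MS023 it became MYBL2, E2F4, E2F1, RB1, FOXM1, E2F3, RBL1, E2F2, E2F7 and E2F8. By its mean, E2F2 thus moved from place 6 to place 8, and RB1 and FOXM1 came below E2F1. Samples of RB1 and E2F1 overlapped there, as did those of RBL1 with E2F3 and with E2F2, and those of E2F7 with E2F8.

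**Figure D1:**
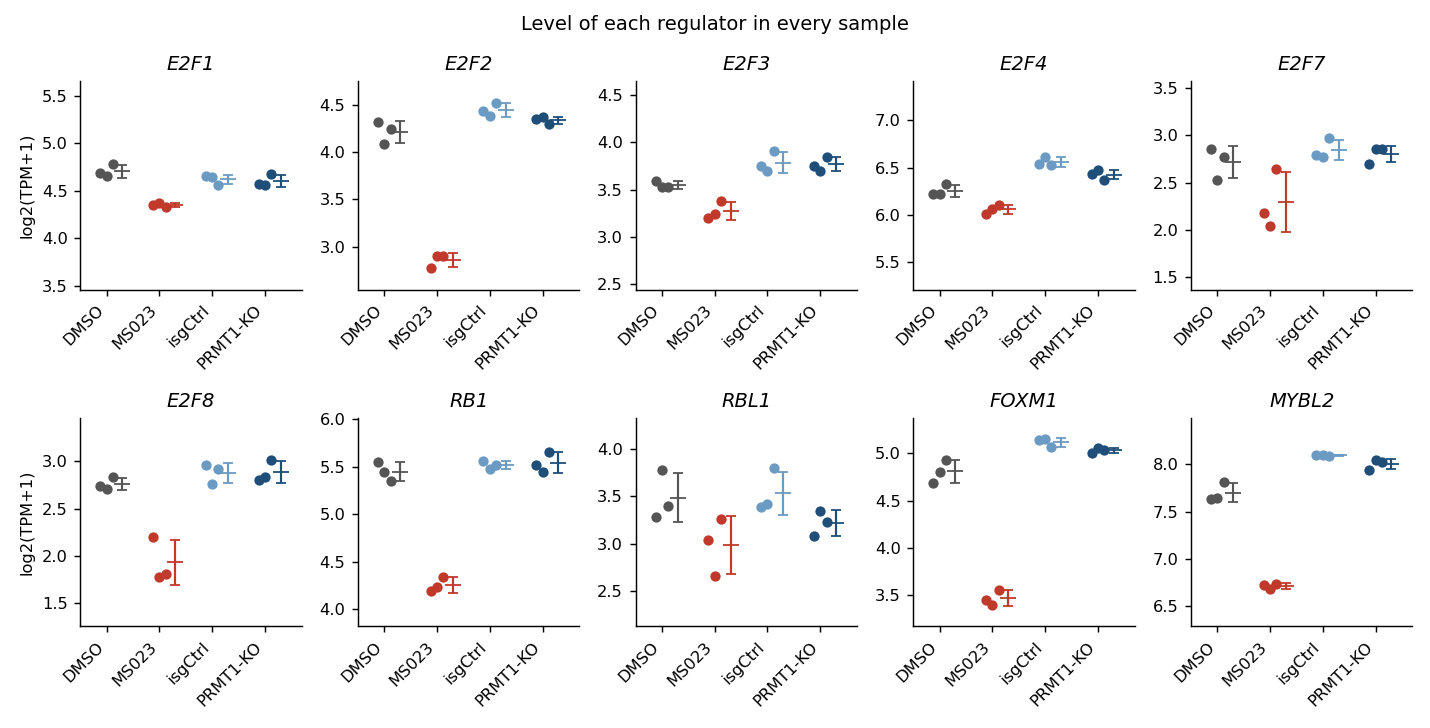
Level of each regulator in every sample, as log2(TPM+1) on the vertical axis, with each panel spanning the same number of log2 units. Points are samples, the bar beside them is the mean with its SD, and the 3 MS023 points lie below all other points for every gene except E2F7 and RBL1.

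MS023 against DMSO asked how inhibition of the type I enzymes moved this network. MS023 lowered 5 of the 10 regulators, E2F2, FOXM1, RB1, MYBL2 and E2F8, and raised none. A change was called in limma where the adjusted p was under 0.05 and the log2 fold change exceeded 0.48 in size, which 30.9% of the 12903 genes tested met, 19.3% lower and 11.6% higher. At the adjusted p alone 8 of 10 regulators were lower, against 48.8% of all genes in either direction. The MS023 and DMSO samples did not overlap for 9 of 10, all lower, against 59.5% of all genes, 36.3% lower. The median log2 fold change of the 10 was -0.66, and that of all genes tested was -0.11. In bulk RNA, fewer dividing cells and less RNA of a gene per cell cannot be told apart. For a single gene, exact permutation of 3 against 3 samples (two-sided) cannot give a p below 0.1.

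Of the activators, E2F2 changed most. On GRCh38 it spans chromosome 1 from 23506438 to 23531233 (minus strand). Its log2(TPM+1) was 4.31, 4.08 and 4.24 in DMSO and 2.78, 2.90 and 2.90 with MS023. All MS023 samples were more than 1 log2 unit below every DMSO sample. The mean fell from 17.6 to 6.27 TPM, or to 35.7% of DMSO, with a log2 fold change of -1.35 ± 0.09 (SE; limma adjusted p = 1.5e-04).

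E2F1 (chromosome 20, 33675477 to 33686385, minus strand) had 4.69, 4.65 and 4.78 in DMSO and 4.35, 4.37 and 4.33 with MS023. The groups were apart and the replicates close together. The level with MS023 was 77.04% of DMSO, and the log2 fold change of -0.36 (SE 0.06, limma adjusted p = 0.00554) stayed short of the fold threshold. E2F3 (chromosome 6, 20401879 to 20493714, plus strand) had 3.59, 3.53 and 3.52 in DMSO and 3.20, 3.25 and 3.38 with MS023, which also did not overlap. Its log2 fold change was -0.27 (SE 0.07, limma adjusted p = 0.0228), again under the threshold. The ratio of E2F2 to E2F1 does not depend on scaling between samples. On the log2 scale it was -0.52 ± 0.11 in DMSO and -1.63 ± 0.08 with MS023, so that E2F2 transcripts went from 0.70 to 0.32 per E2F1 transcript. In isgCtrl and PRMT1-KO this log2 ratio was -0.18 ± 0.12 and -0.28 ± 0.11.

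E2F4, the repressor that works with pocket proteins, was the most abundant E2F in all groups. It (chromosome 16, 67192155 to 67198918, plus strand) had 6.22, 6.22 and 6.33 in DMSO and 6.01, 6.07 and 6.10 with MS023. The groups did not overlap, at a log2 fold change of -0.20 (SE 0.07, limma adjusted p = 0.0488).

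The atypical repressor E2F8 (chromosome 11, 19224063 to 19241620, minus strand) had 2.74, 2.71 and 2.83 in DMSO and 2.20, 1.78 and 1.81 with MS023. The first MS023 replicate was the nearest to DMSO, still below all its samples. E2F8 fell to 49.5% of DMSO in TPM, with a log2 fold change of -0.82 (SE 0.13, limma adjusted p = 0.0031). E2F7 (chromosome 12, 77021248 to 77065569, minus strand), its close relative, had 2.85, 2.52 and 2.76 in DMSO and 2.18, 2.05 and 2.65 with MS023. The third MS023 replicate lay among the DMSO samples, and the difference of -0.42 (SE 0.18) was not called (limma adjusted p = 0.0938). Without that replicate it was -0.60 with an adjusted p of 0.0163 in limma, which met both thresholds.

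RB1, the tumour suppressor that restrains E2F1 to E2F3, was lower with MS023 as well. It lies on chromosome 13, from 48303744 to 48599436 on the plus strand. It had 5.55, 5.45 and 5.35 in DMSO and 4.19, 4.23 and 4.34 with MS023. Every MS023 sample was at least 1 log2 unit below every DMSO sample. The level with MS023 was 42.3% of DMSO, at a log2 fold change of -1.20 ± 0.08 (SE; limma adjusted p = 1.9e-04). RBL1 (chromosome 20, 36996349 to 37095997, minus strand) had 3.28, 3.78 and 3.40 in DMSO and 3.04, 2.66 and 3.26 with MS023. The highest MS023 sample was barely below the lowest DMSO sample. RBL1 differed by -0.50 (SE 0.20, 95% confidence interval -0.97 to -0.02) and was not called (limma adjusted p = 0.0789), but it was called in 1 alternative, the fit of all 12 samples, with an adjusted p of 0.0372 in limma.

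FOXM1, which drives the genes of G2 and mitosis, lies on chromosome 12 from 2857680 to 2877174 on the minus strand. Its values were 4.69, 4.80 and 4.93 in DMSO and 3.45, 3.40 and 3.56 with MS023. All MS023 samples were more than 1 log2 unit lower, at 37.3% of the DMSO mean in TPM. The log2 fold change was -1.34 ± 0.09 (SE; limma adjusted p = 1.8e-04). MYBL2 (chromosome 20, 43667019 to 43716495, plus strand) had 7.64, 7.64 and 7.81 in DMSO and 6.72, 6.68 and 6.74 with MS023. The MS023 samples were closer to each other than the DMSO samples, and the groups stood apart. MYBL2 went from 207 to 104 TPM, at a log2 fold change of -0.98 ± 0.07 (SE; limma adjusted p = 2.6e-04). It stayed the highest of the 10 in both groups.

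Median-ratio scaling of the samples moved the median of all genes by 0.112 on the log2 scale in this comparison. Under it the 5 called regulators stayed called and lower, with log2 fold changes between -1.24 for E2F2 and -0.73 for E2F8. E2F1 was then at -0.24 (limma adjusted p = 0.0354), E2F3 at -0.16 (adjusted p = 0.0910) and E2F4 at -0.07 (adjusted p = 0.412), so E2F3 and E2F4 were not separated from the shift of all genes.

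**Figure D2:**
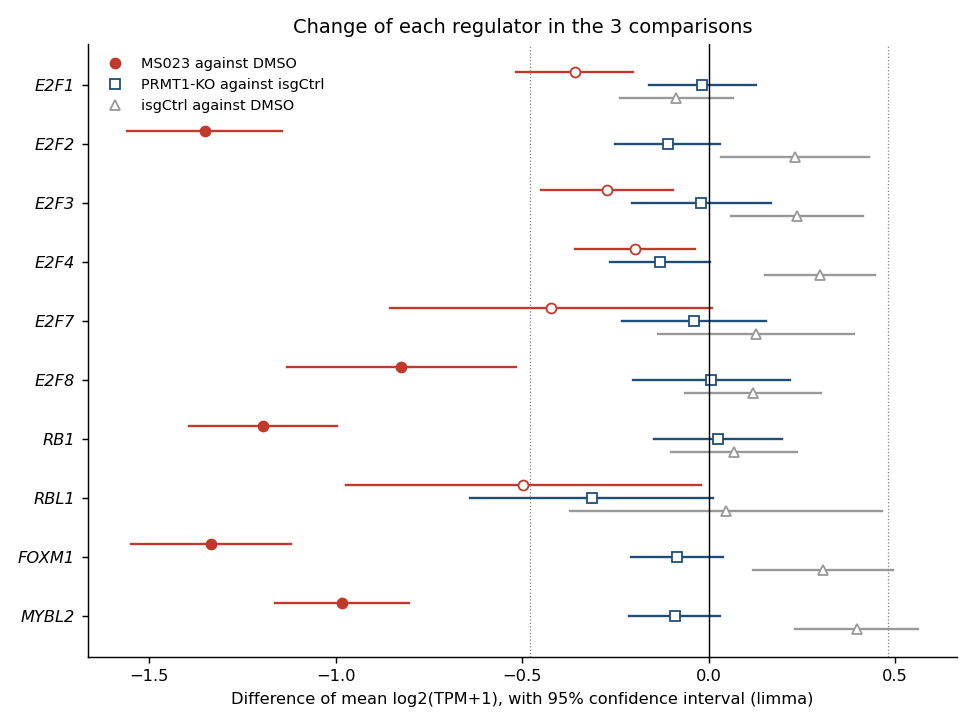
Difference of mean log2(TPM+1) for each regulator with its 95% confidence interval from limma, for MS023 against DMSO, PRMT1-KO against isgCtrl and isgCtrl against DMSO. Filled points met both thresholds, dotted lines mark the fold threshold of 0.48, and the 5 filled points, at -0.82 to -1.35, are all of MS023.

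Summed over E2F1 to E2F8, E2F transcripts were 173 ± 4.72 TPM in DMSO and 137 ± 3.18 TPM with MS023. E2F4 made up 43.7 ± 0.804% of them in DMSO and 48.04 ± 0.759% with MS023. The share of E2F2 went from 10.2 ± 0.812% to 4.58 ± 0.213%, while that of E2F1 was 14.5 ± 0.330% and 14.2 ± 0.493%. The activators E2F1 to E2F3 together held 30.9 ± 1.003% in DMSO and 25.1 ± 0.387% with MS023, and these ranges did not overlap. E2F6, a repressor that works without pocket proteins, went from 11.2 ± 0.833% to 14.9 ± 0.699% with little change in its own level (log2 fold change 0.08, limma adjusted p = 0.438). The 3 pocket proteins RB1, RBL1 and RBL2 summed to 62.2 ± 3.61 TPM in DMSO and 30.7 ± 2.58 TPM with MS023. RB1 supplied 68.7 ± 2.30% of this sum in DMSO and 59.1 ± 3.23% with MS023. The log2 ratio of RB1 to E2F4 went from -0.82 ± 0.16 to -1.86 ± 0.04, with no overlap between the groups. In isgCtrl and PRMT1-KO cells the E2F sum was 207 ± 1.92 and 198 ± 4.18 TPM, and the pocket protein sum was 66.1 ± 2.57 and 63.3 ± 3.62 TPM. E2F1 to E2F3 held 27.6 ± 0.911% and 27.8 ± 1.18% of the E2F sum there, so a share below every DMSO sample was not particular to MS023. The share of E2F1 was 11.4 ± 0.312% in isgCtrl and 11.8 ± 0.783% in PRMT1-KO, lower than in DMSO and with MS023. That of E2F2 was 10.04 ± 0.602% and 9.66 ± 0.124%, within the DMSO range.

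The proteins that work with these regulators were taken as a list of 12 genes. MS023 lowered 6 of them and raised none, with a median log2 fold change of -0.54. Over all genes tested, 19.3% were called lower and 11.6% higher, with a median of -0.11. MYB, a transcription factor related to MYBL2, had the largest fall at -1.39, from 20.6 to 7.19 TPM (limma adjusted p = 3.4e-04). MYBL1, the other relative, fell by 0.99. TFDP1, the DNA-binding partner of the E2Fs, fell by 0.95, from 163 ± 12.9 to 84.02 ± 9.10 TPM. In the MuvB core, RBBP4, a histone chaperone, fell by 0.85 and LIN9 by 0.76, while LIN37 (0.36), LIN52 (-0.20) and LIN54 (-0.30) were not called. RBL2 fell by 0.63. These calls had adjusted p from 3.1e-04 to 0.00297 in limma.

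Genes that act on RB1 from upstream, a list of 17 cyclins, kinases and inhibitors, moved in both directions, with 5 higher and 6 lower. Over all genes tested the shares called were 11.6% higher and 19.3% lower. CCND2, a D-type cyclin that activates CDK4 and CDK6, rose most, from 63.5 ± 3.42 TPM in DMSO to 839.9 ± 17.1 TPM with MS023. Its log2 fold change was 3.71 ± 0.07 (SE; limma adjusted p = 1.1e-05). CCND1 rose by 1.32 from a low level, 1.72 ± 0.504 to 5.78 ± 1.33 TPM, while CCND3 differed by -0.28 and the kinases CDK4 (-0.06) and CDK6 (0.08) were not called. Among the genes for CDK2 and its cyclins, cyclin E2 (CCNE2) fell by 1.18 and CDK2 by 0.95, and cyclin E1 (CCNE1) differed by -0.45 without a call. CDC25A, the phosphatase that activates CDK2, fell by 0.53.

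The inhibitors of these kinases split as well. CDKN1A (p21) rose from 77.8 ± 2.12 to 170.7 ± 0.343 TPM, at 1.12 on the log2 scale. CDKN1C (p57) rose by 1.23 and CDKN2B (p15) by 1.63, the latter from 1.91 ± 0.543 to 7.93 ± 0.352 TPM. In contrast, CDKN2C (p18), the most abundant inhibitor in DMSO cells, fell from 275.8 ± 7.86 to 74.4 ± 3.53 TPM, a log2 fold change of -1.88 (SE 0.07, limma adjusted p = 5.5e-05). CDKN1B (p27) fell by 0.64, and so did SKP2, the ubiquitin ligase subunit that marks p27 for degradation, by 1.44. CDKN2A (-0.32) and CDKN2D (0.22) were not called. The 11 calls of this list had adjusted p from 1.1e-05 to 0.00289 in limma.

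**Figure D3:**
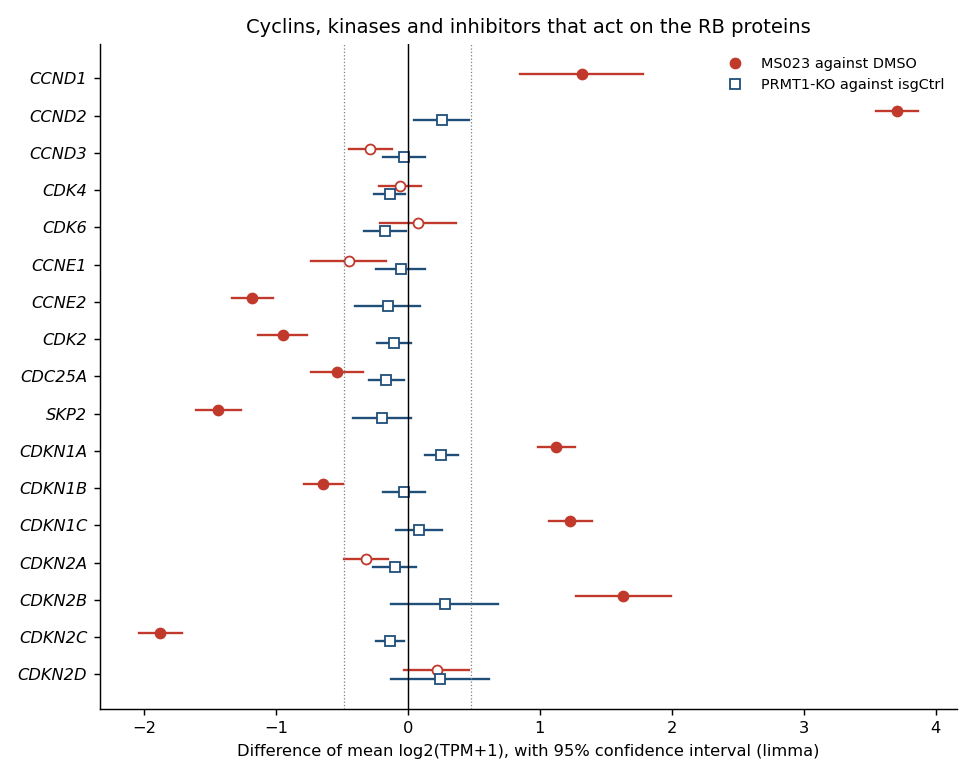
Difference of mean log2(TPM+1) with its 95% confidence interval (limma) for the cyclins, kinases and inhibitors that act on the pocket proteins, for MS023 against DMSO and PRMT1-KO against isgCtrl. Filled points met both thresholds, and CCND2 at 3.71 and CDKN2C at -1.88 are the extremes, while no PRMT1-KO point is filled and CCND1 was too low to be tested there.

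Targets of the network fell together with it. Of 34 E2F targets that act at G1/S, in DNA replication and nucleotide supply, 29 fell and 1 rose, with a median log2 fold change of -0.91. By the same rule 19.3% of all genes tested fell and 11.6% rose, with a median of -0.11. The largest falls were of PRIM1, the DNA primase subunit, at -1.90, RFC3, part of the clamp loader, at -1.53, RRM1, the large subunit of ribonucleotide reductase, at -1.44, and DNMT1, the maintenance DNA methyltransferase, at -1.27. SLBP, which binds the stem-loop of histone mRNAs, rose by 1.19, from 100.1 ± 0.900 to 229 ± 3.00 TPM. Of 31 genes of G2 and mitosis, many of them regulated through MYBL2 and FOXM1, 30 fell, against 19.3% of all genes. Their median was -1.34. DLGAP5 (-2.37), NEK2 (-1.95), the kinase AURKA (-1.75) and cyclin B2, CCNB2 (-1.70), fell most, and the remaining gene, CDC25B, was at 0.40 and not called. E2F-type sites stood in 18 of the 29 genes with a promoter window on the G1/S list (62.1%) and in 1 of 26 on the G2/M list. The CHR stood in 1 of 29 and in 17 of 26 (65.4%). Over all genes with a window, 3.99% had an E2F-type site and 18.2% a CHR. The lists were drawn up as targets of these regulators, so the split in sites between them is not a separate finding. Whether the sites act in these cells was not tested. CCAAT boxes were in 24 of 26 such genes of the G2/M list (92.3%) and in 19 of 29 of the G1/S list. They were in 3 of 8 of the regulators and in 39.7% of all genes with a window.

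**Figure D4:**
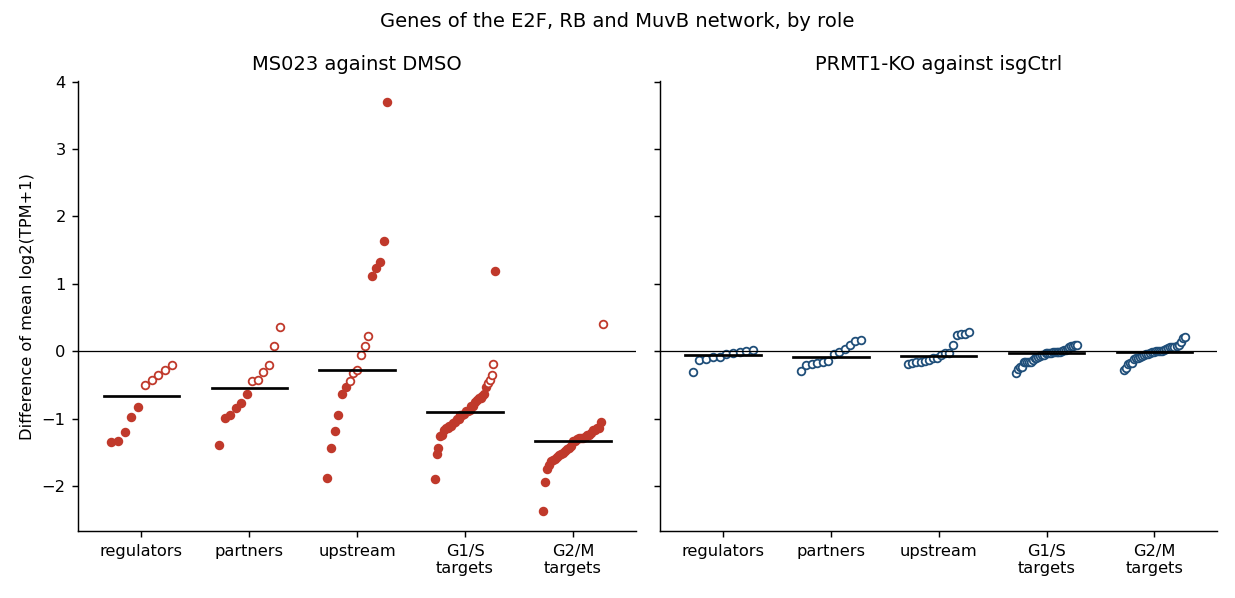
Difference of mean log2(TPM+1) for every gene of the network lists, for MS023 against DMSO (left) and PRMT1-KO against isgCtrl (right), with a line at the median of each list. Filled points met both thresholds; the medians with MS023 run from -0.28 for the upstream list to -1.34 for the G2/M targets, and no PRMT1-KO point is filled.

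PRMT1-KO against isgCtrl asked the same of the PRMT1 guide. None of the 10 regulators was called in limma, where 0.781% of 12285 genes tested were called. This background was 96 genes, and leaving out any 1 of the 6 libraries lowered it to between 2 (without isgCtrl replicate 2) and 21 (without isgCtrl replicate 3), with 0 regulators each time. None had an unadjusted p under 0.05, against 18.6% of all genes. The median log2 fold change of the 10 was -0.06, and that of all genes was -0.04. RB1 had 5.56, 5.48 and 5.52 in isgCtrl and 5.52, 5.44 and 5.66 in PRMT1-KO. E2F8 had 2.96, 2.76 and 2.91 in isgCtrl and 2.80, 2.83 and 3.02 in PRMT1-KO. For both genes the groups overlapped, as they did for E2F1, E2F3 and E2F7. RB1 differed by 0.03 (95% confidence interval -0.15 to 0.20), E2F8 by 0.01 (-0.20 to 0.22) and E2F1 by -0.02 (-0.16 to 0.13).

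Samples of PRMT1-KO and isgCtrl did not overlap for 5 regulators, all lower in PRMT1-KO, where 26.7% of all genes did not overlap, 17.6% lower. FOXM1 had 5.14, 5.14 and 5.06 in isgCtrl and 4.998, 5.06 and 5.03 in PRMT1-KO. MYBL2 had 8.10, 8.09 and 8.09 in isgCtrl and 7.94, 8.04 and 8.02 in PRMT1-KO. For both, the highest PRMT1-KO sample was just below the lowest isgCtrl sample. FOXM1 differed by -0.08 (95% confidence interval -0.21 to 0.04), MYBL2 by -0.09 (-0.21 to 0.03) and E2F2 by -0.11 (-0.25 to 0.03). E2F4 differed by -0.13 (-0.26 to 0.003, limma adjusted p = 0.278). RBL1 had the largest difference, -0.31 (-0.64 to 0.01, limma adjusted p = 0.284), with 3.39, 3.42 and 3.79 in isgCtrl and 3.08, 3.34 and 3.23 in PRMT1-KO. These intervals leave room for changes of up to 0.25 in E2F2 and 0.64 in RBL1, so a p above the threshold does not show that these genes were unchanged.

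The genes on the other lists were not called in PRMT1-KO either. This holds for the 12 partners, for 16 of the 17 upstream genes, with CCND1 not tested at its low level, and for the 34 G1/S and the 31 G2/M targets (limma). Only 0.781% of the 12285 genes tested were called in this comparison. At that share, lists of this size hold few calls or none, so the absence of calls says little about these genes. At an unadjusted p under 0.05 there were 4 of 12 partners and 6 of 16 upstream genes. The same held for 8 of 34 G1/S targets and 6 of 31 G2/M targets, against 18.6% of all genes tested. CDKN1A, called higher with MS023, was at 0.25 in PRMT1-KO (limma adjusted p = 0.0966), and CCND2 was at 0.26 (adjusted p = 0.210).

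The difference between the MS023 effect and the PRMT1-KO effect was tested in all 12 samples. It passed an adjusted p under 0.05 for 6 of 10 regulators, all with the lower value for MS023, against 35.6% of 13256 genes in either direction and 21.2% in this one. FOXM1 (-1.25), E2F2 (-1.24), RB1 (-1.22) and MYBL2 (-0.89) had limma adjusted p from 1.0e-05 to 3.0e-05. E2F8 differed by -0.83 (limma adjusted p = 0.00263) and E2F1 by -0.34 (adjusted p = 0.00769). E2F3 (-0.25, limma adjusted p = 0.0797), E2F7 (-0.38, 0.179), RBL1 (-0.18, 0.611) and E2F4 (-0.07, 0.534) did not pass. E2F3 passed when the third MS023 replicate (adjusted p = 0.0415) or the third isgCtrl replicate (0.0361) was left out in limma, and E2F7 without the third MS023 replicate (-0.56, adjusted p = 0.0167). The arms also differ in Cas9, guide vector, doxycycline and vehicle, which cannot be told apart here from the inhibitor and the guide.

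isgCtrl against DMSO placed the control groups on one scale. None of the 10 regulators was called in limma, where 13.9% of 12661 genes were. At the adjusted p alone 4 of 10 were higher in isgCtrl, against 34.5% of all genes in either direction, and 5 of 10 did not overlap, all higher, against 51.7% of all genes, 31.8% higher. MYBL2 was higher by 0.40 (limma adjusted p = 0.00822), FOXM1 by 0.31 (adjusted p = 0.0275), E2F4 by 0.30 (adjusted p = 0.0138) and E2F3 by 0.24 (adjusted p = 0.0486). Under median-ratio scaling MYBL2 (adjusted p = 0.0143) and E2F4 (0.0302) kept an adjusted p under 0.05 in limma, and FOXM1 (0.0579) and E2F3 (0.0777) did not. E2F5 (0.79), MYB (0.53), CDKN2A (0.70) and CCNE1 (0.49) were called higher and CCND1 (-0.98) and CCND2 (-0.90) lower. This comparison shares the DMSO samples with that of MS023. Cas9, vector, doxycycline and vehicle differ between its groups together and cannot be told apart.

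Genes with a pattern most like each regulator were taken by the root mean square difference of log2(TPM+1) over the 12 samples, after each gene was centred on its own mean, among 13256 genes. The regulators themselves were left out as candidates, so they were not compared with each other here. For E2F2 they were WDR62 (0.05) and KIF4A (0.06), where the median gene was at 0.61. For FOXM1 they were LMNB1 (0.07) and WDR62 (0.08), and for MYBL2 RFLNB (0.07) and ORC1 (0.07). RB1 was most like GTF3A (0.07) and AUNIP (0.08), and E2F8 was close to PIK3R1 (0.09). E2F1 was nearest to GNL3 (0.04) and ODC1 (0.05), E2F3 to NRAS (0.05) and HNRNPK (0.05), E2F4 to RANBP9 and PRR12 (0.04 each), and E2F7 to LARP4 (0.07) and CFAP97 (0.09). Outside the regulators, RBL1 had no gene nearer than ZNF473 and NOC3L (0.13 each). WDR62 thus stood near both E2F2 and FOXM1, whose MS023 effects were -1.35 and -1.34. LMNB1 and ORC1 are themselves on the G2/M and G1/S lists.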

How the data were processed

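The authors checked reads with FastQC, trimmed them with Trimmomatic, aligned to hg38 (GENCODE V35) with STAR and quantified with Salmon. They deposited log2(TPM+1) values, which were used as they stand, with no sample or column left out. TPM keep no depth, so no count model was used. Genes with a group mean above 1 in either group (for the difference of effects, in any group) entered limma 3.58.1 (R 4.3.3; eBayes, no trend), with Benjamini-Hochberg adjustment. Calls used the study's thresholds, adjusted p under 0.05 with a log2 fold change over 0.48 in size. The difference of effects used the adjusted p alone. The pseudocount of 1 makes changes of low genes smaller. The code was tested on simulated data. Pearson's r between replicates was 0.993 to 0.996 over all 59276 gene symbols, of which 20988 to 22241 were above 0 in a sample. It was not computed for the tested genes alone. No replicates were identical.

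The regulators and all gene lists were chosen with earlier results of these data known. Named are all regulators, PRMT1, every partner and upstream gene that passed in a comparison, the 4 G1/S and G2/M targets with the largest called change in each direction with MS023, and the 2 genes nearest to each regulator, with some items not reported here. Partner, upstream and target genes without a call, and plasma cell and other markers, were named after their values were seen. Gene positions come from GENCODE v44 and promoters from RefSeq, both GRCh38.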

Additional observations from a re-analysis of the deposited data

Results flagged for a closer look

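For 6 regulators the effect of MS023 against DMSO differed from the effect of PRMT1-KO against isgCtrl in a test of the difference itself over all 12 samples (limma, Benjamini-Hochberg adjusted p under 0.05). On the log2(TPM+1) scale the difference was -1.25 ± 0.10 (SE) for FOXM1, -1.24 ± 0.10 for E2F2 and -1.22 ± 0.10 for RB1. It was -0.89 ± 0.08 for MYBL2, -0.83 ± 0.16 for E2F8 and -0.34 ± 0.08 for E2F1. In each of them the 3 MS023 samples lay below the 3 DMSO samples, as they also did for E2F3, E2F4 and RBL1, which did not pass. Among all 13256 genes, 35.6% passed the same test, 21.2% with the lower value for MS023. Cas9, guide vector, doxycycline and vehicle also differ between the arms and cannot be told apart from the inhibitor and the guide. Groups of 3 samples are too small for a test of single outlying samples.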

How the results depend on the processing

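E2F2, FOXM1, RB1, MYBL2, E2F8 and E2F1 had an adjusted p under 0.05 in limma for MS023 against DMSO in all 13 alternative fits, E2F3 in 5, E2F4 in 3, E2F7 in 2 and RBL1 in 1. With no fold change threshold 8 regulators were called with MS023 and 4 in isgCtrl against DMSO, in place of 5 and 0. Leaving out single replicates gave 5 to 6 called regulators, 6 to 8 partners, 11 to 12 upstream genes, 30 to 32 G1/S targets and 30 G2/M targets with MS023, 0 of each in PRMT1-KO, and 6 to 8 regulators whose effects differ. Small differences changed sign. In PRMT1-KO, median-ratio scaling and quantile normalization gave 0.022 and 0.024 for E2F1, and 0.019 and 0.029 for E2F3. Leaving out single replicates gave -0.056 to 0.0032 for E2F1, -0.065 to 0.040 for E2F3, -0.076 to 0.022 for E2F7, -0.060 to 0.047 for E2F8 and -0.033 to 0.074 for RB1. In isgCtrl against DMSO, RB1 was -0.014 with quantile normalization, and RBL1 was -6.9e-04 with median-ratio scaling, -0.017 with quantile normalization and -0.085 to 0.19 with single replicates left out. E2F4 differed between the effects by 0.014 under median-ratio scaling. The alternatives for single regulators in the difference of effects were chosen after seeing the data. The cause of these changes was not tested. Fits without 1 replicate assume that the smaller group varies like the other.

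Samples with the same replicate number did not deviate together in every pair: r was 0.021, 0.073 and 0.102 for MS023 and DMSO, -0.142, 0.070 and -0.070 for PRMT1-KO and isgCtrl, and -0.032, -0.047 and -0.228 for isgCtrl and DMSO. With the number as a block, 5 regulators were called with MS023, 0 in PRMT1-KO and 6 for the difference of effects, as without it. Over all genes the block gave 4018 calls with MS023 and 0 in PRMT1-KO, against 3986 and 96 without it, and PRMT1 itself was among the lost calls, at -1.50 with an adjusted p of 0.149 in limma. In the other 13 fits, which for PRMT1 were added after seeing the data, PRMT1 stayed called.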
